A study of Mus musculus with 30 samples.

Results

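Livers of adult male mice whose mothers had drunk 2,4-BPS were compared with the libraries labelled male control, over the genes whose level depends little on sex. 2,4-BPS is a positional isomer of bisphenol S (BPS), a phenol compound used in place of bisphenol A. Livers were taken at 10 weeks of age from offspring of the outbred ICR stock, and their RNA was sequenced, with 3 libraries for each of 10 groups and each sex holding 5 of these. In the male 2,4-BPS group, 8 dams drank water with 10 ng/mL of the compound and 0.001% ethanol, with the dose held near 5 µg/kg daily, over some 40 days through pregnancy and weaning. The BPSIP, BPS and E2 (estradiol) groups were dosed alike, and male control dams drank the ethanol alone. The labels describe each library as a single liver, with the offspring of a group drawn from litters of different dams, and the same scheme was used for females. The sources used here do not give the hour at which the livers were taken.

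The libraries labelled male control do not hold the RNA of male livers alone. The summed level of 4 Y-linked genes was 138 ± 8.02 CPM (counts scaled to a common library total; SD, n = 3) in the male 2,4-BPS livers and 88.4 ± 6.01 CPM in the libraries labelled male control. In the 12 exposed male libraries that sum ran from 131 to 169 CPM, and the highest library labelled female held 0.543 CPM. A1bg, a transcript of female liver, averaged 3.88 CPM in the male 2,4-BPS livers, 1466 CPM in the libraries labelled male control and 2544 CPM in female controls. Each of the 3 libraries labelled male control held both Y-linked RNA and A1bg (1368 to 1622 CPM). A single male liver therefore does not describe them. Whether the 3 libraries of any group are 3 separate animals was not tested, and the p-values below take them as separate. By the Y-linked genes per library total, the share of RNA from female livers in these 3 libraries was estimated at 43.5%. That sets them against the mean of the 12 exposed male libraries. The Y-linked sum averaged 138 CPM in 2,4-BPS, 153 in BPSIP, 168 in BPS and 148 in E2 males. Set against the 2,4-BPS males alone, the share would be smaller, and no range of it was used. Over 15 female-specific genes the labelled control held 7.04% to 101% of the female control level, with a median of 48.5%, and the values that use a share of 43.5% hold for that estimate.

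For that reason the account keeps to genes that exposed females and exposed males hold at a like level. Members were chosen by these measured levels: a gene was kept when its mean over the 6 compared libraries was at least 1 CPM and when the mean of the 12 exposed female libraries was 0.67 to 1.5 times that of the 12 exposed male libraries. Of 17990 genes in the table, 11535 reached that level and 9845 of these lay within the band, called neutral genes here; 1223 lay above it and 467 below it. The ratios of the members had a median of 1.00, with quartiles of 0.913 and 1.113. Just inside the band stood Vmo1 at 0.6704 and Zfp995 at 1.4998, and just outside it Bet1 at 0.6699 and Fas at 1.50004. The 2,4-BPS livers themselves were among the libraries that set the ratio. At a female share of 43.5%, the mixing alone can move a log2 fold change by −0.28 for a ratio of 1.5 and by 0.22 for a ratio of 0.67, so changes of that size or smaller cannot be told apart from it; a gene whose level in female controls lies further off can move more. Fold changes below are log2 values of male 2,4-BPS minus labelled male control with the standard error of the fit, and a gene rose or fell only where edgeR's quasi-likelihood test gave an adjusted p under 0.05.

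Hepatocytes secrete most plasma proteins, and these fold in the endoplasmic reticulum with the help of chaperones that the unfolded protein response keeps in supply. A second set of chaperones, under heat shock factor 1, folds proteins in the cytosol. The liver also runs a circadian clock, in which BMAL1 (Arntl) and CLOCK drive E-box genes such as the Per and Cry repressors and the output factors Dbp, Tef and Hlf, so that the level of many transcripts depends on the hour.

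In the male 2,4-BPS livers chaperone transcripts were high and clock output transcripts low. Of 23 neutral genes of endoplasmic reticulum chaperones and the unfolded protein response 20 rose, and of 18 neutral heat shock chaperones 16 rose. Of 18 neutral clock genes 13 fell and 3 rose. Over all neutral genes 2202 of 9845 rose and 1701 fell, which is 22.4% and 17.3%; among the 13474 genes tested 18.9% were higher and 19.4% lower. At a change of at least 1.5-fold, 447 neutral genes rose and 380 fell, 4.54% and 3.86%, against 5.09% and 8.22% of all genes tested. The 6 libraries held 30297653 to 34037025 counts.

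Within the endoplasmic reticulum list, 6 of the 21 neutral genes with a promoter in the RefSeq table (GRCm38.p6) carry the endoplasmic reticulum stress element, CCAAT and CCACG with 9 bases between them, searched on both strands, in the 250 bases before their start. Of 27025 genes with a promoter 35 carry it, or 0.130%, and of 7996 neutral genes 10. None of these matches overlaps one of the other motifs searched. They are shown because these members are described next, with the element in capitals; where it lies on the opposite strand, it reads as its reverse complement. The match is a property of the letters and shows no binding. Hspa5 lies at chr2:34771840-34772089 on the plus strand, Hsp90b1 at chr10:86705445-86705694 and Calr at chr8:84846932-84847181, both on the minus strand. Windows of 43 bases are given for Canx at chr11:50325788-50325830 on the minus strand, Dnajc3 at chr14:118937815-118937857 and Pdia6 at chr12:17266479-17266521, both on the plus strand.
Hspa5: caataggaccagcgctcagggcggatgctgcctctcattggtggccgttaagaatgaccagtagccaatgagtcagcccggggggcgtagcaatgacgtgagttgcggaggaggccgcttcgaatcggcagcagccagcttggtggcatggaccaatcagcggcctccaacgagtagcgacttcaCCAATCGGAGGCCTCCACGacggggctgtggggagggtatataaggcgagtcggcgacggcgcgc
Hsp90b1: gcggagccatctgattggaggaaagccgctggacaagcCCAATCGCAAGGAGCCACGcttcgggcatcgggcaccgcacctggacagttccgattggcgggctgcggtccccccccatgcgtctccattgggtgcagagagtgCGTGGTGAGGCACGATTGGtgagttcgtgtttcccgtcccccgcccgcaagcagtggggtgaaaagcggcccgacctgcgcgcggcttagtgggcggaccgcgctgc
Calr: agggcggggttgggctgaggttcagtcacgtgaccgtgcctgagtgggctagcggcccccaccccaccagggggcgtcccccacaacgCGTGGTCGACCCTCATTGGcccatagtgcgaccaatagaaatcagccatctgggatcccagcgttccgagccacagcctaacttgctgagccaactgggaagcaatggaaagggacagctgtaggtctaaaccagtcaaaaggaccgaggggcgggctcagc
Canx: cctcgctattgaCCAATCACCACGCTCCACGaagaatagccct
Dnajc3: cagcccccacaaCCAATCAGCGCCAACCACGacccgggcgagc
Pdia6: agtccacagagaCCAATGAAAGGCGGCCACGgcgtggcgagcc

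Hspa5 encodes BiP, the chaperone that binds unfolded chains in the endoplasmic reticulum and holds the stress sensors inactive. It had 1951, 2009 and 1936 CPM in the male 2,4-BPS livers, against 443, 446 and 434 CPM in the libraries labelled male control. The groups lay far apart, with a 4.46-fold higher mean (2.16 ± 0.04, edgeR adjusted p = 3.65e-49). Per length, in the FPKM values that the authors deposited, Hspa5 stood at 758 ± 4.82 FPKM against 166 ± 2.43 FPKM (SD, n = 3 each), above Hsp90b1 (595 ± 14.7 FPKM) and Calr (683 ± 16.7 FPKM) in the male 2,4-BPS livers and below both in the labelled control (347 ± 8.87 and 416 ± 14.1 FPKM). Pdia4, a disulphide isomerase, had 478, 501 and 480 CPM against 177, 168 and 162 CPM in the labelled control (1.53 ± 0.05, edgeR adjusted p = 4.25e-33). Dnajb9, a BiP cofactor used in degradation, had 155, 134 and 153 CPM against 65.7, 63.9 and 65.2 CPM (1.19 ± 0.05, edgeR adjusted p = 6.97e-29). In none of these 3 genes did a 2,4-BPS library reach down to a labelled control library. They were named for the smallest p among the rises of the list, so this separation is largely fixed by the choice.

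Regulators at the head of the pathway moved less than Hspa5. The regulators, the other carriers of a motif and some further genes were chosen after their values were seen. Xbp1, the transcription factor that IRE1 splices, averaged 268 ± 5.61 CPM in the male 2,4-BPS livers and 153 ± 5.25 CPM in the labelled control (0.81 ± 0.04). Eif2ak3, the sensor kinase PERK, rose by 0.69, whereas Ern1, the sensor IRE1, had a change of 0.06 that did not pass. Atf6, the third sensor, was the single member that fell, with 64.1, 72.5 and 65.0 CPM against 76.6, 82.2 and 84.2 CPM (−0.27 ± 0.06, edgeR adjusted p = 0.000197); the mixed comparison described below gave −0.38.

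The promoters printed above belong to genes with unequal changes. Hsp90b1, the endoplasmic HSP90, had 1697, 1668 and 1675 CPM against 1033, 1009 and 966 CPM in the labelled control (0.75 ± 0.04), and Calr, the lectin chaperone calreticulin, averaged 1360 ± 57.1 against 846 ± 25.7 CPM (0.69 ± 0.04). Dnajc3, a BiP cofactor, rose by 0.32 ± 0.04 and Canx, the membrane lectin calnexin, by 0.21 ± 0.04. Pdia6, another isomerase, had 464, 465 and 456 CPM against 479, 471 and 457 CPM, and did not pass (−0.02 ± 0.04, edgeR adjusted p = 0.767). The element was thus present both in the gene with the largest rise of the list and in one that did not pass.

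**Figure D1:**
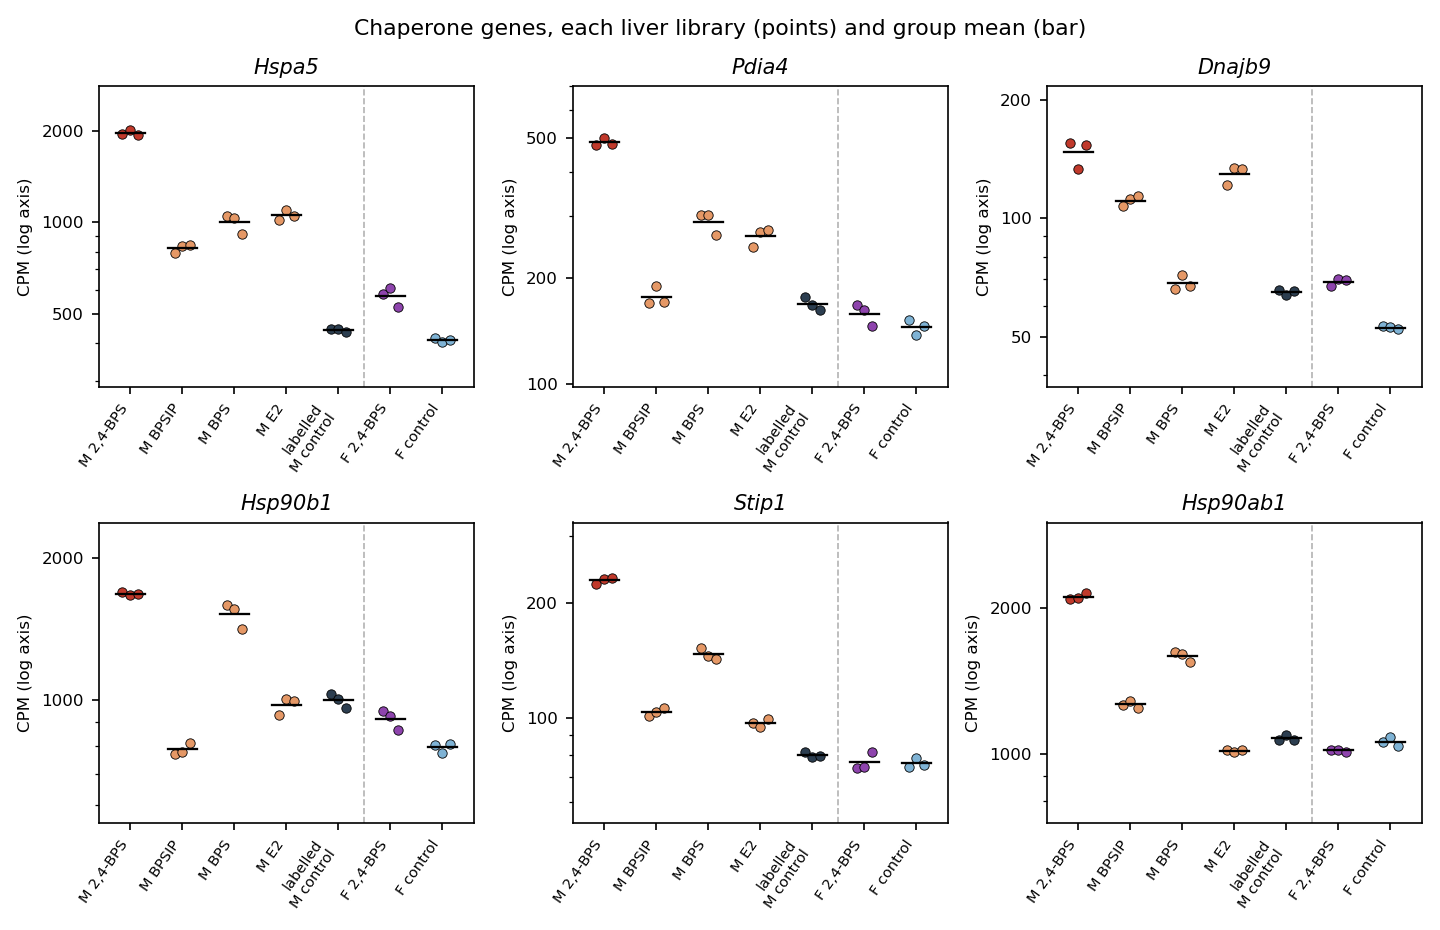
Levels of 6 chaperone genes in CPM on a log axis, with a point per liver library, a bar at the group mean, male groups left of the dashed line and female groups right of it. The 3 male 2,4-BPS livers lie above the libraries labelled male control in every panel, and for Hspa5, Pdia4, Hsp90b1, Stip1 and Hsp90ab1 above all 9 livers of the other exposed males; for Dnajb9 they lie above 8 of the 9.

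A comparison without the labelled controls set the male 2,4-BPS livers beside the 9 livers of males exposed to BPSIP, BPS or E2; the 2,4-BPS libraries are the same in both comparisons. There 21 of the 23 neutral genes of the list were higher and 0 lower, where 15.4% of neutral genes were higher and 12.9% lower, and 13.5% and 12.3% of all genes tested. Hspa5 ran from 791 to 1099 CPM with a median of 1019 in these 9 livers, and all 9 lay under the lowest 2,4-BPS liver (1.05 ± 0.03, edgeR adjusted p = 5.05e-38). The share of all genes that lie wholly above or below these 9 livers is not given here, for Hspa5 or for genes named below. Pdia4 was higher by 1.03 ± 0.04 and Pdia6, which did not pass against the labelled control, by 0.59 ± 0.03. When each 2,4-BPS library was first mixed with the same-numbered female control library at a share of 43.5%, 14 members rose and 3 fell against the labelled control, beside 18.1% and 18.7% of neutral genes and 16.5% and 18.3% of all genes tested, and the median of the list was 0.19 in place of 0.42. Hspa5, Pdia4 and Dnajb9 were neutral by the exposed livers only, since their ratio of female control to exposed male livers lay outside the band. In the mixed comparison Hspa5 kept a change of 1.501, Pdia4 of 0.96 and Dnajb9 of 0.68. Because part of each mixed library is unexposed female RNA, a difference between male livers is also diluted there. A smaller value than against the unmixed libraries therefore does not measure the part due to mixing.

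Heat shock chaperones rose as well. The list of 18 neutral members had a median of 0.76, beside 0.02 for all neutral genes, and 11 members rose by at least 1.5-fold. Stip1, the adaptor between HSP70 and HSP90, had 225, 232 and 233 CPM in the male 2,4-BPS livers, against 81.2, 78.9 and 79.1 CPM in the labelled control (1.53 ± 0.05, edgeR adjusted p = 7.7e-38). Hsp90ab1, the constitutive cytosolic HSP90, had 2085, 2088 and 2138 CPM against 1064, 1093 and 1066 CPM (0.97 ± 0.04, edgeR adjusted p = 1.43e-33). Hspa8, the constitutive HSP70, averaged 1734 ± 31.9 against 964 ± 2.91 CPM (0.85 ± 0.04). Again no library of either group overlapped the other, which the choice by smallest p largely fixes here too.

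The mitochondrial pair moved least among the heat shock members that passed. Hspd1, the matrix chaperonin HSP60, averaged 609 ± 31.8 CPM against 517 ± 19.8 CPM (0.24 ± 0.05), and its partner Hspe1 148 ± 7.98 against 115 ± 4.57 CPM (0.36 ± 0.05). Those are also the members with the heat shock element, GAA, TTC and GAA with 2 bases between each, in the 250 bases before their start, 2 of 14 with a promoter in the table, against 0.514% of all genes. They are a head-to-head gene pair whose windows overlap, and both matches are the same stretch. Hsf1, the heat shock factor, had a change of 0.19 that did not pass, and Dnaja2, a J protein, one of −0.09 that did not pass. Against the other exposed males 15 of the 18 were higher and 1 lower, and in the mixed comparison 14 rose and 1 fell.

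The amino acid response of ATF4, which the unfolded protein response also feeds, was split, with 8 of 16 neutral members up and 5 down. Atf5, a transcription factor of the mitochondrial stress response, had 351, 365 and 351 CPM against 154, 151 and 151 CPM in the labelled control (1.23 ± 0.04, edgeR adjusted p = 8.71e-35). The tRNA synthetase genes Aars (0.63 ± 0.04) and Wars (0.83 ± 0.10) rose, and Atf4 itself by 0.34 ± 0.05. Ddit4, an inhibitor of mTORC1, had 5.70, 5.78 and 5.52 CPM against 23.1, 22.7 and 22.8 CPM (−2.01 ± 0.12, edgeR adjusted p = 6.69e-23). Set beside the other exposed males, Atf5 ran the other way (−0.17 ± 0.04, edgeR adjusted p = 0.000113), its 9 livers there spanning 339 to 472 CPM. For Atf5 the labelled control lay below all 12 exposed males, and 6 of the 9 other exposed males lay above the 2,4-BPS livers.

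Clock transcripts showed a high Arntl and low outputs. Arntl, which encodes the activator BMAL1, had 16.4, 18.9 and 16.8 CPM in the male 2,4-BPS livers, against 2.84, 2.96 and 4.28 CPM in the labelled control (2.37 ± 0.15, edgeR adjusted p = 1.08e-21), and its partner Clock averaged 51.6 ± 1.54 against 29.6 ± 2.41 CPM (0.80 ± 0.07). Usp2, a clock-controlled deubiquitinase, had 7.96, 11.6 and 13.5 CPM against 59.2, 58.1 and 58.5 CPM (−2.40 ± 0.10, edgeR adjusted p = 2.84e-25). Ciart, a repressor of BMAL1 and CLOCK, had 3.78, 3.73 and 4.51 CPM against 23.6, 21.8 and 22.6 CPM (−2.50 ± 0.14, edgeR adjusted p = 7.97e-24). The activator stood above and these targets below the labelled control in every library. Usp2 and Ciart were named by a rule that asks for groups without overlap, and Arntl was chosen after its values were seen.

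Dbp and Tef, PAR bZIP factors that pass the rhythm on to liver metabolism, fell as well. Dbp had 33.7, 35.4 and 32.1 CPM against 100.2, 101.4 and 107 CPM in the labelled control, 3.04-fold lower (−1.61 ± 0.06, edgeR adjusted p = 3.83e-33), and Tef 82.0, 89.3 and 85.3 CPM against 165, 172 and 169.8 CPM (−0.98 ± 0.05). Per1, a repressor in the negative limb of the clock, had 11.6, 16.0 and 11.6 CPM against 37.3, 35.5 and 35.5 CPM (−1.46 ± 0.09), while Cry1, another such repressor, fell by 0.35. Nfil3, which opposes Dbp at its sites, rose by 0.48. Casein kinase genes Csnk1d and Csnk1e, with changes of −0.08 and −0.23, were the 2 members that did not pass.

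An E-box, CACGTG, lies in the 250 bases before the start of 4 of the 14 neutral clock genes found in the promoter table, beside 6.86% of all genes and 10.4% of neutral genes. These are Ciart, Cry1, Per1 and Tef, and the letters around 1 match each are given, 30 bases in GRCm38.p6 coordinates, with the E-box in capitals. Ciart has 3 matches, of which that at chr3:95882327-95882356 on the minus strand is shown. Cry1 lies at chr10:85185097-85185126 on the minus strand, Per1 at chr11:69098771-69098800 and Tef at chr15:81802534-81802563, both on the plus strand. None of the 14 holds the D-box TTATGTAA, and Nfil3 holds the ROR element AGTAGGTCA.
Ciart: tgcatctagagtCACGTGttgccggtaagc
Cry1: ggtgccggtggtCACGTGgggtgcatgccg
Per1: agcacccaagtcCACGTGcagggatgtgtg
Tef: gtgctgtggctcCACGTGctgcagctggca

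**Figure D2:**
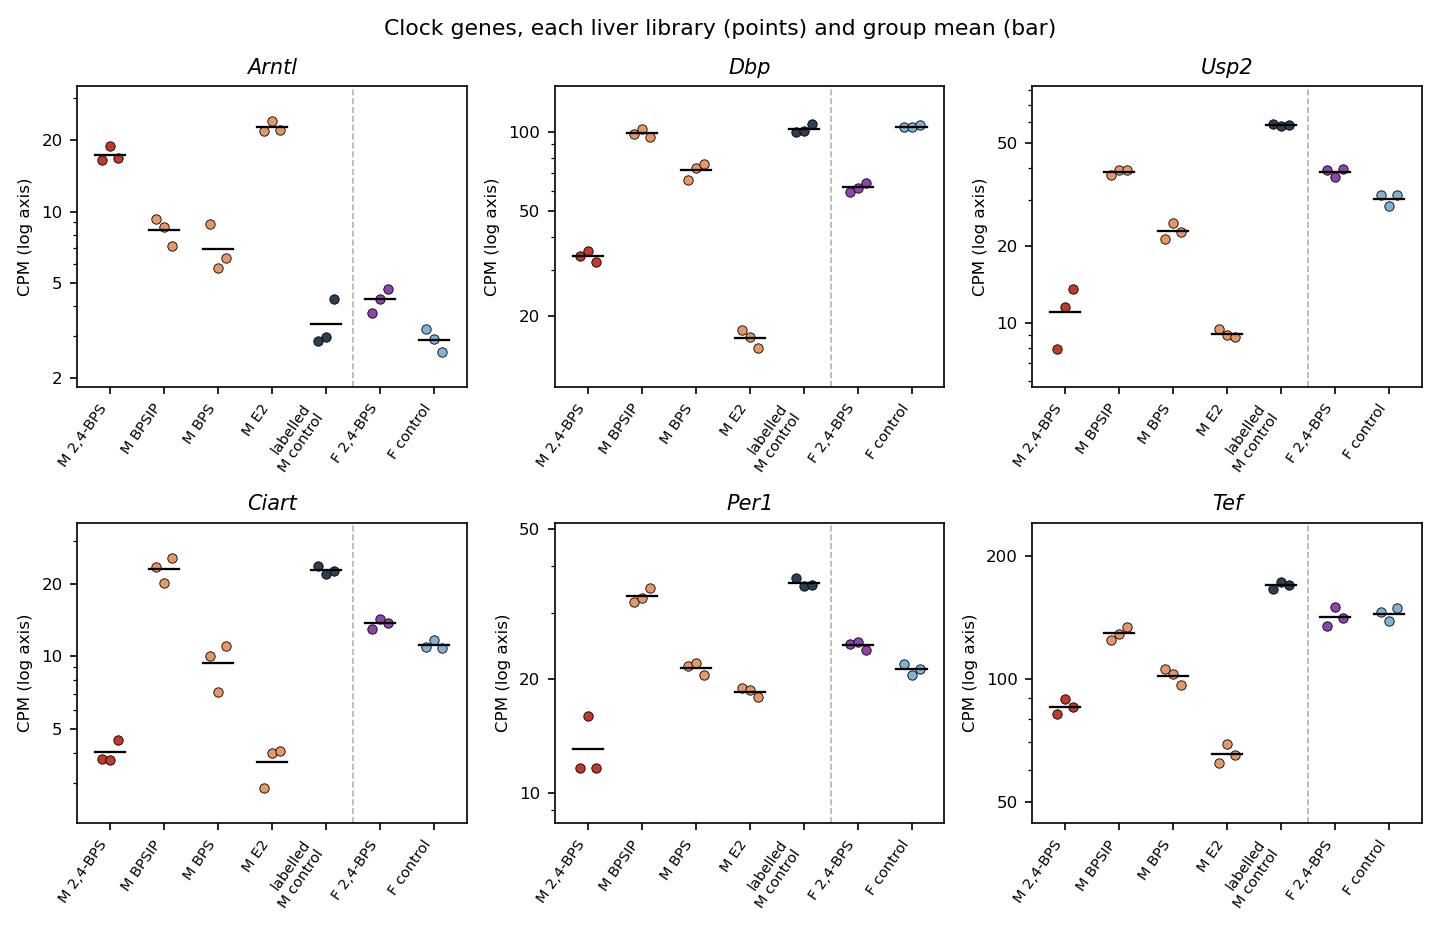
Levels of 6 clock genes in CPM on a log axis, with a point per liver library, a bar at the group mean, male groups left of the dashed line and female groups right of it. Arntl is higher and the other 5 genes are lower in the 3 male 2,4-BPS livers than in the libraries labelled male control; the E2 males lie close to the 2,4-BPS males for Usp2 and Ciart and beyond them for Arntl, Dbp and Tef, and the BPSIP males lie near the labelled control for Dbp, Ciart and Per1.

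The clock genes also differed among the exposed males. Dbp averaged 99.5 CPM in BPSIP, 71.6 CPM in BPS and 16.4 CPM in E2 males. Arntl averaged 8.36, 6.99 and 22.7 CPM in the same 3 groups. For both genes the E2 males lay beyond the 2,4-BPS males and the BPSIP and BPS males on the side of the labelled control. Against the 9 other exposed males 8 clock members were lower and 3 higher; Per1 was lower than in all 9 (−0.85 ± 0.08, edgeR adjusted p = 9.06e-14), whereas Clock and Cry1 did not pass. In the mixed comparison 14 members fell and 2 rose.

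Beyond these lists, the largest rises among neutral genes by the naming rule included Acta1, H2bc8, Ckm, Slc37a2, Tnnt3, Rps2, Rsph3b, Nckap5 and Cyp4a14. Rps2, a protein of the small ribosomal subunit, had 261, 249 and 264 CPM in the male 2,4-BPS livers against 46.3, 46.7 and 48.6 CPM in the labelled control (2.45 ± 0.05, edgeR adjusted p = 1.05e-48). H2bc8, a replication-type histone H2B gene, had 8.64, 10.4 and 6.42 CPM against 1.16, 0.831 and 1.104 CPM (3.04 ± 0.26, edgeR adjusted p = 1.22e-15). Rps2, H2bc8, Rsph3b and Cyp4a14 have near copies elsewhere in the genome, so reads may have been shared with them.

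Cyp4a14, a fatty acid hydroxylase under PPAR alpha, shows how much rests on the comparison group. It is the 1 neutral gene among the 17 listed as female-specific in liver. It had 196, 231 and 205 CPM in the male 2,4-BPS livers, against 39.4, 44.2 and 38.5 CPM in the labelled control (2.38 ± 0.05, edgeR adjusted p = 7.2e-35). The other exposed males spanned 689 to 1416 CPM, all above the 2,4-BPS livers (−2.36 ± 0.05, edgeR adjusted p = 9.44e-37). Female controls averaged 229 ± 1.58 CPM, and 43.5% of that, 99.8 CPM, is more than the labelled male control holds in all.

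Muscle transcripts were among the largest rises, all at low levels. Acta1, skeletal actin, had 10.0, 5.16 and 4.42 CPM in the male 2,4-BPS livers against 0.806, 0.698 and 0.669 CPM in the labelled control (3.17 ± 0.51, edgeR adjusted p = 9.59e-05). Ckm, muscle creatine kinase, had 5.20, 4.13 and 3.25 CPM against 1.23, 0.399 and 0.335 CPM (2.69 ± 0.86, edgeR adjusted p = 0.0311), and Tnnt3, fast troponin T, 4.61, 1.30 and 1.16 CPM against 0.0350, 0.864 and 0.335 CPM (2.50 ± 0.61). Library 1 was the highest 2,4-BPS library for each of them, and without it Tnnt3 had a change of 1.58 and an edgeR adjusted p of 0.0922. Tnnt3 also did not pass in a fit of the 6 libraries alone (edgeR adjusted p = 0.0648) or in the mixed comparison (1.77, edgeR adjusted p = 0.130), and it reached the level of a neutral gene only through the 2,4-BPS libraries, since its mean over the 24 exposed libraries was under 1 CPM. Ckm did not pass without 2,4-BPS library 1 (edgeR adjusted p = 0.0777) or 2 (edgeR adjusted p = 0.0587), nor without labelled control library 2 (edgeR adjusted p = 0.101) or 3 (edgeR adjusted p = 0.104). Of the 25 genes of tissues next to the liver and blood in the table, 8 are neutral, and of these 4 rose and 0 fell. Acta1, Ckm, Tnnt3 and Hba-a2 reached 1 CPM over the 6 libraries only through the 2,4-BPS libraries. They could therefore pass only as rises, and the count of neutral members says little. Over the 16 genes of the list that were tested, neutral or not, 5 rose and 2 fell. The pancreatic genes Prss2, Cpa1, Clps and Ins2 were at 0 in all 6 libraries. The part of muscle RNA in these values was not tested.

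The largest falls were in Rgs16, Ppp1r3g, Crym, Gspt2, LOC118568792, Ciart, Usp2, Lmod2, Trim12c and Mmd2. Rgs16, a brake on G protein signalling that is rhythmic in liver, had 13.4, 17.1 and 14.7 CPM in the male 2,4-BPS livers against 155, 143 and 167 CPM in the labelled control (−3.36 ± 0.07, edgeR adjusted p = 3.36e-39). Ppp1r3g, which targets a phosphatase to glycogen, had 1.77, 2.45 and 1.82 CPM against 21.2, 18.3 and 18.97 CPM (−3.27 ± 0.19, edgeR adjusted p = 3.76e-24). Both were also high in female controls, at 172 ± 1.44 and 14.3 ± 2.05 CPM, and in the mixed comparison the changes were −0.86 for Rgs16 and −1.37 for Ppp1r3g. The mixed comparison dilutes a male difference most where female controls are high, so these values do not give the part due to mixing. Mmd2 averaged 2.06 ± 0.401 against 9.56 ± 1.01 CPM (−2.21 ± 0.17), and Trim12c, which has near copies, 3.35 ± 0.867 against 15.7 ± 1.55 CPM (−2.23 ± 0.15). Those 2 genes and Crym, which encodes a thyroid hormone binding protein (−3.14 ± 0.42), were below all 9 other exposed males too.

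LOC118568792 and Lmod2 were higher in the labelled control than in all exposed males and in female controls. LOC118568792 had 2.45, 2.45 and 2.51 CPM in the male 2,4-BPS livers and 15.1, 14.1 and 15.1 CPM in the labelled control (−2.57 ± 0.20, edgeR adjusted p = 3.11e-17), but 1.38 to 4.92 CPM in the other exposed males and 1.91 ± 0.242 CPM in female controls. Lmod2, a leiomodin, had 1.30, 0.746 and 1.13 CPM against 7.08, 5.28 and 4.08 CPM (−2.36 ± 0.40), with 0.157 to 1.18 CPM in the other exposed males. Gspt2 reached the level of a neutral gene only through the labelled control, where it therefore had to be the higher, and by the mean over the 24 exposed libraries neither Gspt2 nor Lmod2 was a member.

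**Figure D3:**
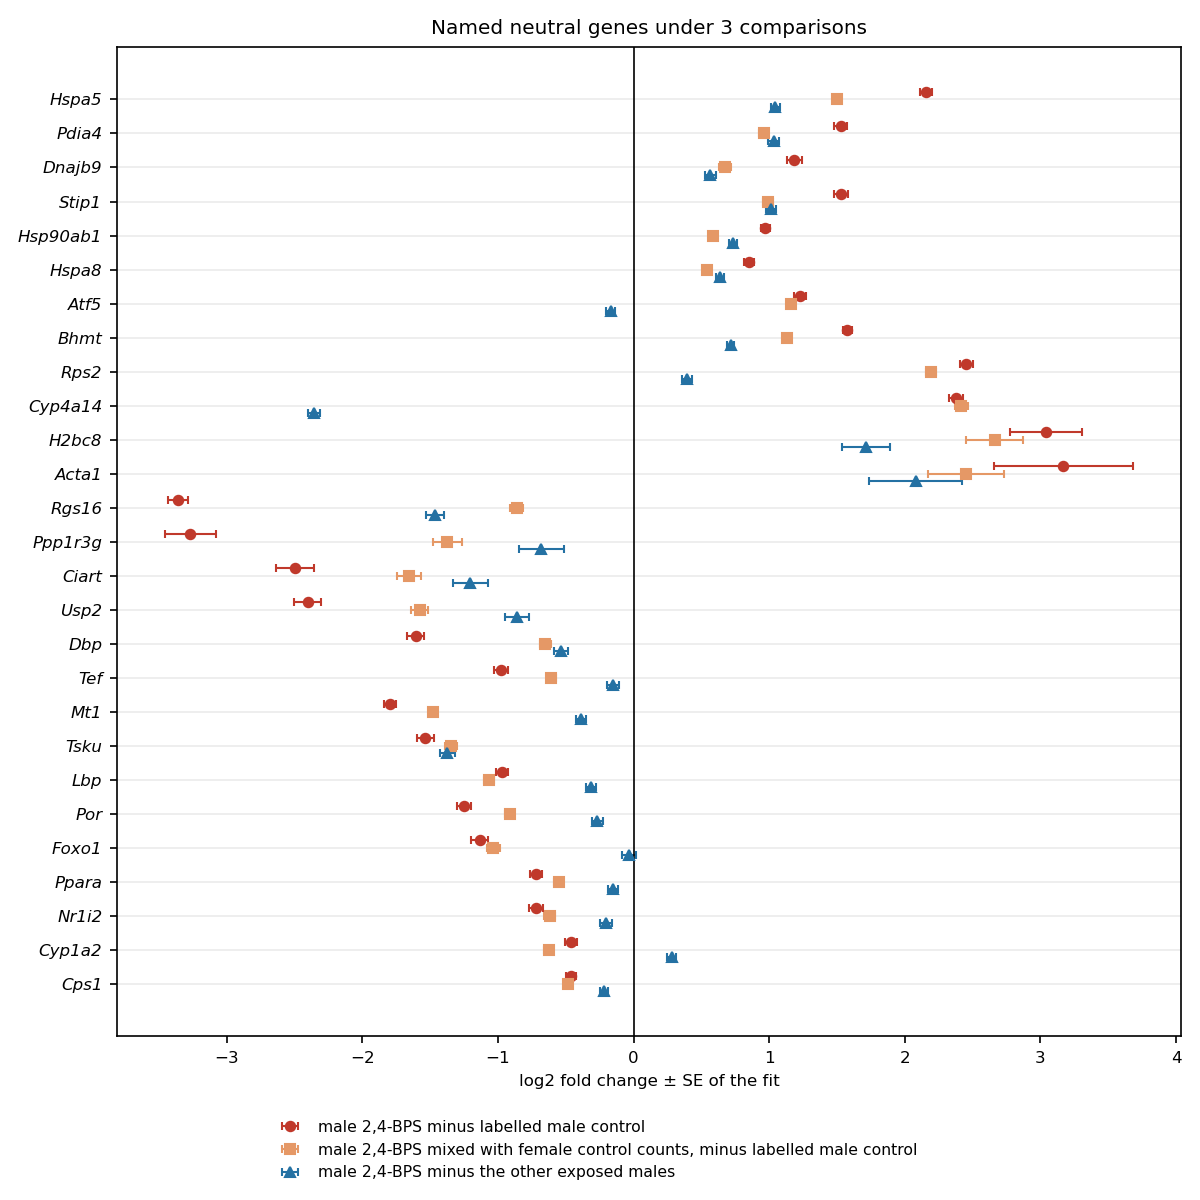
Log2 fold changes with the standard error of the fit for named neutral genes under 3 comparisons: male 2,4-BPS minus labelled male control (circles), the same with 43.5% of female control counts mixed into the 2,4-BPS libraries (squares), and male 2,4-BPS minus the 9 livers of the other exposed males (triangles). Chaperone genes lie right of 0 in all 3, whereas Atf5, Cyp4a14 and Cyp1a2 change side when the other exposed males take the place of the labelled control.

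Methionine and one carbon genes held several of the clearest rises, 8 of 17 neutral members, with 4 that fell. Bhmt, which passes a methyl group of betaine to homocysteine, had 7781, 7626 and 7727 CPM in the male 2,4-BPS livers against 2587, 2549 and 2639 CPM in the labelled control, 2.98-fold higher (1.58 ± 0.03, edgeR adjusted p = 6.37e-48). All 9 other exposed males were lower, although the range between them was wide, from 2522 CPM in a BPSIP liver to 7135 CPM. Gnmt, which uses up surplus methyl groups, averaged 2495 ± 99.3 against 1558 ± 27.6 CPM (0.68 ± 0.04). Mtr, the methionine synthase, fell by 0.68.

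Genes of the ribosome and of oxidative phosphorylation rose by small amounts. Of 35 neutral cytosolic ribosomal protein genes 27 rose and 0 fell, with a median of 0.16; apart from Rps2 the largest changes were in Rpsa (0.56 ± 0.04), which encodes a small subunit protein, and Rplp0 (0.51 ± 0.04), a protein of the stalk. Of 40 neutral nuclear genes of oxidative phosphorylation 27 rose and 0 fell, also with a median of 0.16, led by Ndufs7 (0.34) and Cox4i1 (0.33 ± 0.04), subunits of complexes I and IV. Scaling by neutral genes alone left 21 and 20 of them. In the mixed comparison 33 ribosomal genes rose and 0 fell, and 10 oxidative phosphorylation genes rose and 1 fell. Against the other exposed males 6 ribosomal and 16 oxidative phosphorylation genes were higher and 0 lower in either list. These medians lie within the range that the mixing can give.

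Of 25 neutral nuclear receptors and coregulators, among them the sensors of bile acids, drugs and fatty acids, 9 fell and 3 rose, with a median of −0.07. Ppara, the receptor of fatty acids that drives their oxidation, had 254, 279.7 and 269 CPM in the male 2,4-BPS livers against 459, 430.5 and 432 CPM in the labelled control (−0.72 ± 0.05, edgeR adjusted p = 9.83e-22). Nr1i2, the drug receptor PXR, had 70.5, 82.8 and 79.6 CPM against 132, 124 and 128 CPM (−0.72 ± 0.05, edgeR adjusted p = 2.27e-18). Nr1h4, the bile acid receptor FXR, averaged 114 ± 0.652 against 153 ± 5.30 CPM (−0.43 ± 0.05) and lay under all 9 other exposed males (−0.48 ± 0.04, edgeR adjusted p = 1.07e-16). Nr1i3, the drug receptor CAR, fell by 0.49 against the labelled control, but it was higher in female controls, and the mixed comparison gave 0.01.

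Of 17 neutral P450 genes and their regulators 8 fell and 2 rose, whereas against the other exposed males 6 were lower and 7 higher. Por, the reductase that passes electrons to all microsomal P450 enzymes, had 378, 474 and 408 CPM in the male 2,4-BPS livers against 1021, 993 and 993 CPM in the labelled control (−1.25 ± 0.05, edgeR adjusted p = 1.89e-21). In the other exposed males it spanned 366 to 741 CPM, with 1 liver below and 4 above all 2,4-BPS livers (−0.27 ± 0.04). Cyp1a2, a P450 induced through the aryl hydrocarbon receptor, averaged 605 ± 30.2 against 836 ± 25.1 CPM (−0.46 ± 0.04), yet it was higher than in the other exposed males (0.28 ± 0.03). Ahr, that receptor, fell by 0.26 ± 0.09, and the mixed comparison gave 0.10. Cyp2e1, an ethanol-metabolising P450, had 8826, 9217 and 8597 CPM against 9356, 9343 and 9098 CPM and did not pass (−0.06 ± 0.03, edgeR adjusted p = 0.153).

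Bile acid genes were split, with 8 of 16 neutral members up and 5 down. Rises were found in the synthesis enzymes Cyp8b1 (571 ± 51.6 against 379.9 ± 18.5 CPM, 0.59 ± 0.05), Hsd3b7 (399 ± 8.75 against 266 ± 3.46 CPM, 0.59 ± 0.04) and Baat (343 ± 17.4 against 252 ± 3.94 CPM, 0.45 ± 0.04). Abcc2, a canalicular exporter of conjugates, fell by 0.57, and so did the sterol exporters Abcg5 (−0.63 ± 0.05) and Abcg8 (−0.78 ± 0.05), which act as a pair. The neutral genes of lipid droplets were split as well, 7 of 14 down and 5 up. Hsd17b13, a droplet protein, averaged 224 ± 15.4 against 403 ± 11.2 CPM (−0.84 ± 0.04), and Pnpla2, the lipase that starts triglyceride breakdown, 102 ± 7.55 against 156 ± 7.95 CPM (−0.61 ± 0.05).

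Of 16 neutral complement genes 12 fell and 0 rose, with a median of −0.23, and of 24 neutral coagulation genes 15 fell and 3 rose, with a median of −0.19. Both medians lie within the range that the mixing can give. F7, the factor that starts clotting with tissue factor, averaged 83.1 ± 6.03 CPM in the male 2,4-BPS livers and 120 ± 1.15 CPM in the labelled control (−0.52 ± 0.05). The 3 that rose were the fibrinogen chains, such as Fgg with 5468, 5489 and 5305 CPM against 3736, 3499 and 3688 CPM (0.58 ± 0.03, edgeR adjusted p = 3.34e-23). Of 18 neutral acute phase genes 9 rose and 6 fell. Lbp, which presents lipopolysaccharide to its receptor, had 176, 195 and 171 CPM against 362, 359 and 343 CPM (−0.97 ± 0.05, edgeR adjusted p = 8.3e-28), and Il6ra, the receptor of interleukin 6, averaged 50.6 ± 1.81 against 96.3 ± 4.74 CPM (−0.93 ± 0.06). In the mixed comparison 14 complement genes fell, while the acute phase list turned, with 6 up and 11 down and a median of −0.14 in place of 0.10.

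Of 32 neutral genes of the urea cycle and amino acid breakdown 18 fell and 5 rose, with a median of −0.16, which also lies within the range that the mixing can give. Sds, which turns serine into pyruvate, had 154, 174 and 162 CPM in the male 2,4-BPS livers against 314, 293 and 297 CPM in the labelled control (−0.88 ± 0.05, edgeR adjusted p = 4.08e-25). Cps1, the entry enzyme of the urea cycle, averaged 3356 ± 121 against 4630.0 ± 82.9 CPM (−0.46 ± 0.03). Sds was also below all 9 other exposed males (−0.29 ± 0.04, edgeR adjusted p = 1.1e-08). The list as a whole did not keep its direction there, with 9 members higher, 5 lower and a median of 0.02. In glucose metabolism 9 of 19 neutral members fell and 7 rose, among them the liver glycogen synthase Gys2 (164 ± 4.64 against 296 ± 10.4 CPM, −0.85 ± 0.04) and the glucose phosphatase G6pc, with 213, 233 and 224 CPM against 314, 294 and 279.9 CPM (−0.40 ± 0.04). G6pc had a change of −0.04 in the mixed comparison and did not pass there (edgeR adjusted p = 0.399). Foxo1, a transcription factor that insulin inactivates, averaged 39.3 ± 2.18 against 86.5 ± 3.79 CPM (−1.13 ± 0.06, edgeR adjusted p = 4.79e-24), but did not pass against the other exposed males (−0.03 ± 0.05, edgeR adjusted p = 0.714).

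Of 31 neutral genes that serve fatty acid oxidation or are targets of PPAR alpha 10 rose and 9 fell, and the counts shifted to 17 and 5 in the mixed comparison. Ehhadh, a peroxisomal enzyme, averaged 492 ± 17.7 CPM in the male 2,4-BPS livers and 363 ± 7.56 CPM in the labelled control (0.44 ± 0.04). Cpt1a, which admits fatty acids to mitochondria, averaged 522 ± 36.6 against 649.7 ± 28.8 CPM (−0.31 ± 0.05). Against the other exposed males 19 of the 31 were lower and 2 higher, beside 12.9% and 15.4% of neutral genes. Ketone body synthesis had 3 of 4 neutral members up and 0 down.

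Metallothioneins, small proteins that bind zinc and copper, were the lowest members of the metal list. Mt1 had 202, 229 and 219 CPM in the male 2,4-BPS livers against 748, 749 and 767 CPM in the labelled control (−1.80 ± 0.04, edgeR adjusted p = 1.27e-43), and Mt2 averaged 191 ± 11.2 against 659.7 ± 6.78 CPM (−1.78 ± 0.05). The metallothionein genes resemble each other closely enough that counting may have split reads between them. The zinc exporter Slc30a1 fell by 0.76 and the importer Slc39a14 by 0.63 ± 0.05. In the other exposed males Mt1 spanned 159 to 524 CPM, with the BPSIP group at 164 CPM and the E2 group at 514 CPM, and 3 of these 9 livers lay below the 2,4-BPS livers and 6 above. Of the 21 neutral members of the list, 7 fell and 6 rose.

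Single genes of signalling stood out in the same way. Tsku, a secreted hepatokine, had 36.4, 44.96 and 35.5 CPM in the male 2,4-BPS livers against 118, 110.0 and 111 CPM in the labelled control (−1.54 ± 0.06, edgeR adjusted p = 4.69e-27), and it was below all 9 other exposed males (−1.37 ± 0.05, edgeR adjusted p = 2.66e-27). Igf1, the growth factor that growth hormone induces in liver, averaged 684 ± 17.0 against 865 ± 40.2 CPM (−0.33 ± 0.04) and was likewise below all 9. Cdkn1a, the cell cycle inhibitor p21, had 15.5, 16.9 and 15.1 CPM against 7.43, 7.77 and 7.63 CPM (1.06 ± 0.13, edgeR adjusted p = 1.38e-10), but lay within the range of the other exposed males, 7.09 to 26.8 CPM.

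**Figure D4:**
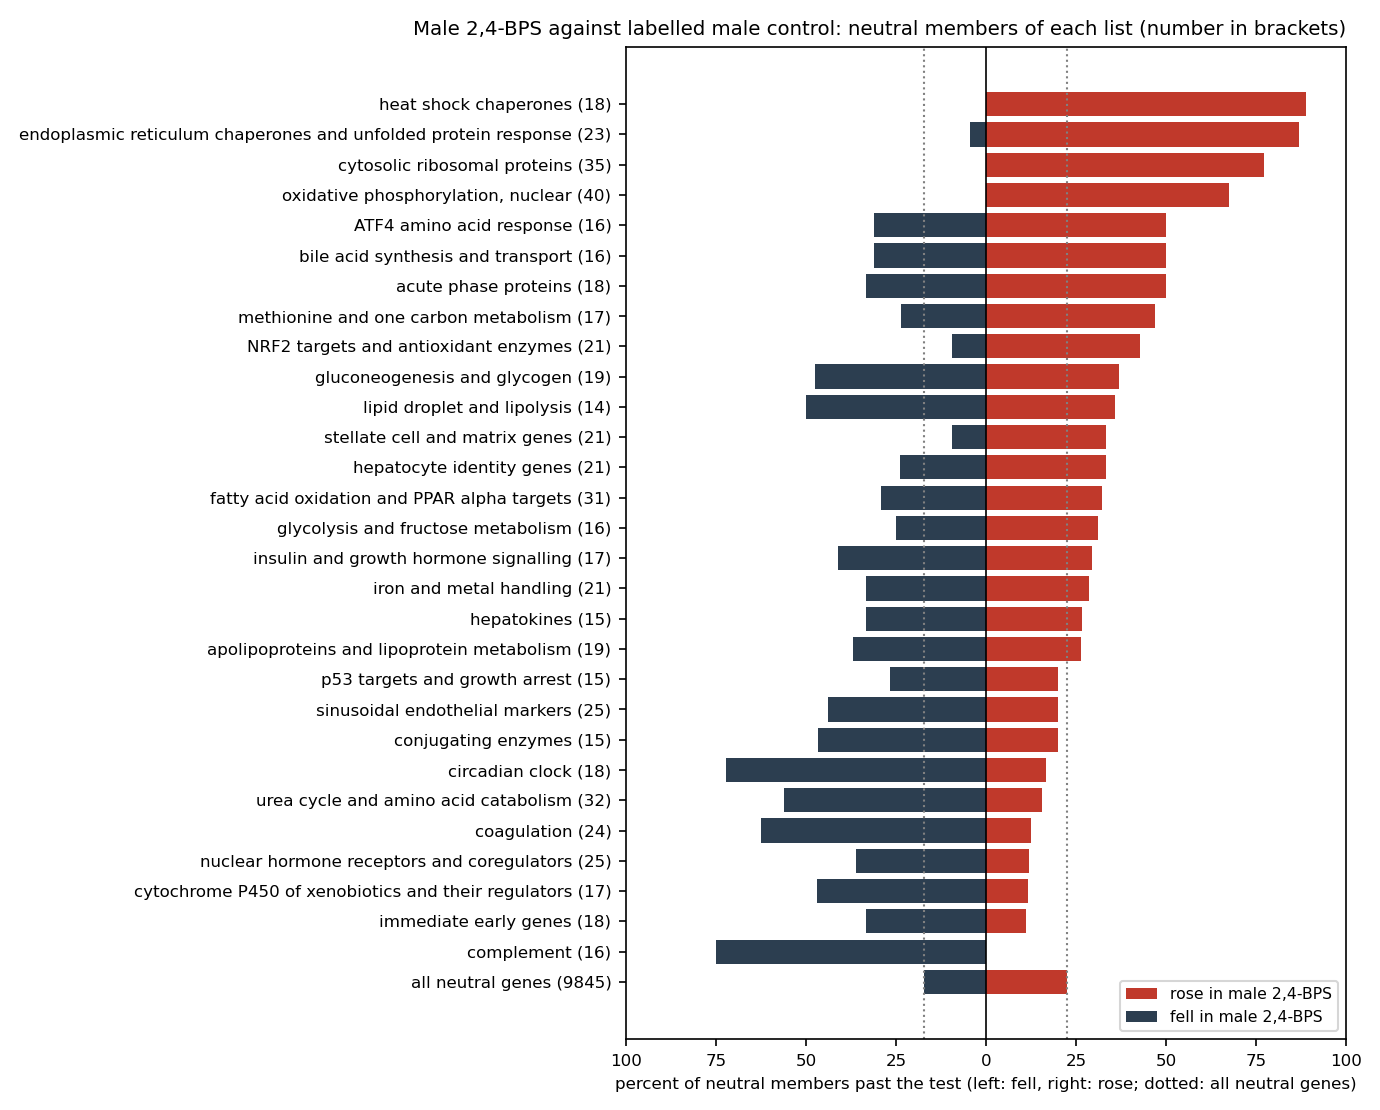
Percent of the neutral members of each list with at least 14 such members (number in brackets) that rose (right) or fell (left) in male 2,4-BPS livers against the libraries labelled male control; dotted lines mark all neutral genes, of which 22.4% rose and 17.3% fell. Heat shock and endoplasmic reticulum chaperones have the largest shares that rose, and complement, clock and coagulation genes the largest shares that fell. The median changes of the complement and coagulation lists lie within the range that the mixing can give.

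Markers of other liver cells moved beside these genes, over whole lists and not the neutral members alone. The 23 markers of macrophages and Kupffer cells summed to 936 ± 16.3 CPM in the male 2,4-BPS livers and 1674 ± 43.6 CPM in the labelled control. Of these markers 21 fell. The other exposed male groups averaged 1119 to 1254 CPM, and female controls held 1856 ± 31.3 CPM. The 20 lymphocyte markers summed to 22.5 to 24.9 CPM against 40.2 to 42.9 CPM. Female controls held 60.5 ± 7.73 CPM of these, and the other exposed male groups averaged 25.1 to 27.9 CPM. Sinusoidal endothelial markers, all 25 of them neutral, summed to 953 to 961 CPM against 1032 to 1039 CPM, with 11 down and 5 up; in the mixed comparison that turned to 3 down and 8 up. The 30 stellate and matrix genes summed to 859 to 974 CPM against 840.3 to 888 CPM, the 15 cholangiocyte markers to 46.0 to 59.5 CPM against 58.0 to 64.8 CPM, and 17 neutrophil and monocyte markers to 22.4 to 29.9 CPM against 19.3 to 26.7 CPM. All 25 hepatocyte identity genes were detected, with sums of 106692 to 117522 CPM against 138724 to 144752 CPM. Gene by gene 7 of them rose and 7 fell, with a median of 0.05, so the lower sum is not a fall of the list. The other exposed male groups averaged 92029 to 109587 CPM and female controls 139199 CPM. Of the macrophage, lymphocyte and neutrophil lists, only 3, 1 and 2 markers are neutral. The part of female RNA in the labelled control sums was not tested. In whole liver, fewer cells of a type and less RNA per cell cannot be told apart, and the part of these lists in the results above was not tested.

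In females the same exposure gave other values for the neutral genes, of which 930 rose and 935 fell against female controls, 9.45% and 9.5%, beside 10.9% and 8.42% of all genes tested. Hspa5 averaged 570.2 CPM in female 2,4-BPS livers and 409 ± 7.62 CPM in female controls (0.49 on the log2 scale, edgeR adjusted p = 5.72e-08), and 12 of the 23 members of its list rose and 1 fell. The heat shock list had 3 members up and 0 down, the clock list 7 up and 2 down, the complement list 14 up and 0 down, and the ribosomal list 1 up and 25 down. The female minus male difference of the effect passed for 3616 neutral genes, 36.7%, against 34.8% of all genes tested. For Hspa5 it was −1.68 (edgeR adjusted p = 4.4e-28) and for Dbp 0.84 (edgeR adjusted p = 1.35e-11). Dbp was lower in females as well, with 59.4, 61.6 and 64.1 CPM in 2,4-BPS livers against 104.9, 104.4 and 106.5 CPM in female controls. The male side of the female minus male difference rests on the libraries labelled male control, and the ratio of exposed females to exposed males also chose the genes.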

How the data were processed

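RNA from livers of 10 week old mouse offspring was sequenced in 30 libraries, 3 for each of 5 exposures and 2 sexes. The authors deposited a table of read counts per gene and a table of FPKM values (scaled by library and by gene length), here used for levels per length. The submitters' processing notes name HISAT2, HTSeq, DESeq2 and R 3.2.0. Which genome build was used, and whether counting was stranded, is not given in the sources used here.

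From the deposited counts, edgeR 4.0.16 (R 4.3.3) was run as a quasi-likelihood test with TMM scaling on the 15 male libraries, after its own filter on low counts, with Benjamini-Hochberg adjustment over the 13474 genes tested. Females were fitted in the same way (13874 genes), and the female minus male difference was fitted on all 30 libraries (14131 genes). CPM values are counts divided by the library total times the TMM factor of the 30 libraries; log2 fold changes were computed here from the counts the authors deposited. Library totals ran from 29711711 to 37719069 counts, so 1 count in the smallest was 0.0337 CPM. In the mixed comparison, the counts of each male 2,4-BPS library were combined with those of a female control library at a share of 43.5%, taken from the Y-linked genes by CPM per library total.

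Genes were named by a rule: the 10 largest rises and 10 largest falls among genes past the test whose groups did not overlap, without predicted or clone models; the 3 smallest p in lists with enough changed neutral members; and a panel of 24 genes; some genes that met the rule are not reported here. The members, the 44 gene lists and the panel were chosen with earlier results of these data known. Genes given for a promoter motif, and Xbp1, Atf6, Eif2ak3, Ern1, Hsf1, Dnaja2, Atf4, Ddit4, Arntl, Clock, Nfil3, Csnk1d, Csnk1e, Mtr, Ndufs7, Abcc2, Cps1, Ehhadh and Slc30a1, lie outside that rule and were chosen after their values were seen. Promoters are from RefSeq (GRCm38.p6). The fits were tested on simulated data, DESeq2 1.42.0 served as an alternative, and replicates within a group differed by more than sampling noise.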

Additional observations from a re-analysis of the deposited data

Results flagged for a closer look

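Among 19 genes with the largest changes and the 13 neutral genes of the panel, 26 had an effect of 2,4-BPS that differed between females and males by the test of the difference in edgeR's fit of all 30 libraries (adjusted p under 0.05). Values are the female minus male difference of log2 fold changes; 8 were below 0 and 18 above. Among all neutral genes 36.7% had such a difference, and 34.8% of all genes tested. The 19 genes were chosen for the size of their change in males, so that a difference opposite in sign to that change is largely fixed by the choice. The male part of each value rests on the libraries labelled male control, which hold RNA of female livers, and the part of that in the differences was not tested.

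Genes that were more raised, or less lowered, in males than in females were H2bc8 (−4.08), Cyp4a14 (−2.81), Slc37a2 (−2.76), Nckap5 (−2.41), Rps2 (−1.89), Hspa5 (−1.68), Rsph3b (−1.21) and G6pc (−0.61). For G6pc this reflects a larger fall in females (−1.01) than in males (−0.40).

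Genes with the opposite sign were led by LOC118568792 (4.59), Crym (3.65), Ciart (2.80), Usp2 (2.75), Trim12c (2.67), Rgs16 (2.60), Gspt2 (2.59), Lmod2 (2.52), Mmd2 (2.27) and Mt1 (2.21). Smaller differences were found for Ppp1r3g (1.79), Nr1i2 (1.353), Cdkn1a (1.05), Dbp (0.84), Ppara (0.80), Nr1h4 (0.70), Nr1i3 (0.49) and Cyp1a2 (0.27). Cdkn1a rose in both sexes, by 2.11 in females and 1.06 in males. Dbp was lower than in the controls in both sexes, and less so in females.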

How the results depend on the processing

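Against the labelled control, 2202 neutral genes rose and 1701 fell. The counts were 711 and 601 when a change had to exceed 1.2-fold (glmTreat), and 1191 and 769 in a narrower band of ratios, from 0.9 to its inverse, which holds only 5216 genes. At 1.5-fold the counts of 447 and 380 became 262 and 251 in the mixed comparison and 175 and 121 in the narrower band. Against the other exposed males, 1512 and 1274 became 778 and 627 in that band. TMM factors from neutral genes gave 1861 and 1934, and DESeq2 2313 and 1650. With 1 library left out, 1956 to 2051 rose and 1408 to 1535 fell, at 1.5-fold 440.0 to 459 and 342 to 388, and against the other exposed males 1244 to 1347 and 941 to 1029.

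Of 123 named genes, 35 no longer passed when a change had to exceed 1.2-fold, among them Igf1, Cpt1a, Cox4i1 and Ahr. In the mixed comparison 2 named genes changed sign, Nr1i3 (0.0064) and Ahr (0.096). Another 14 no longer passed there, among them G6pc (−0.04, edgeR adjusted p = 0.399). Female control counts mixed into the 2,4-BPS libraries also dilute a difference between male livers, which can keep a gene from passing. Without labelled control library 1, Krt19 had a change of −0.17 in place of −0.91 and Muc1 of −0.48 in place of −1.33, and neither passed. With the band set without the 2,4-BPS libraries, 15 named genes were no longer members, among them H2bc8, Slc37a2, Crym, Lmod2, Abcg8, Gys2 and Cdkn1a. With the ratio of female control to exposed male livers also required within the band, 2061 neutral genes rose and 1540.0 fell, and 32 named genes were no longer members, among them Hspa5, Pdia4, Dnajb9, Stip1, Dbp, Tef, Usp2, Bhmt, Tsku, Rgs16, Cyp4a14, Acta1, Ckm and Tnnt3. In the narrower band 86 named genes were no longer members, and by the mean over the 24 exposed libraries 4, Tnnt3, Gspt2, Lmod2 and Muc1.

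With the replicate number as a block, 2194 genes rose and 1694 fell. Same-numbered libraries had correlations of deviations of 0.0303, 0.0173 and 0.0101, so the numbers pair no samples; Ckm (edgeR adjusted p = 0.0554) and Krt19 did not pass under the block.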
